A study of Rattus norvegicus with 10 samples.

Results

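Imprinted genes were examined in the arcuate nucleus (ARC) of the hypothalamus, a nutrient-sensing nucleus, of rat dams. The members were chosen by gene name from a list of 43 imprinted genes, made with earlier results of the same data known, and grouped by their position and by the parental allele known to be expressed. Of the 43 names, 32 had a row in the authors' table of 12828 rows, and these gave 33 rows because Gnas has 2. The other 11 names, Dio3, H19, Klf14, Meg3, Mkrn3, Peg10, Peg12, Phlda2, Pon3, Rtl1 and Slc22a18, were matched to no row under the listed symbol or a synonym, and their levels were not analysed here. The table had been filtered by the authors, so a member with a row had passed a filter. The study's methods state a minimum number of reads per gene, but the name of the table refers to a filter on FPKM, and whether the stated minimum is the filter of this table is not given.

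Poly-A RNA was sequenced from 10 Wistar mother rats, collected upon giving birth. During pregnancy 5 of them had received 5X-FA (folic acid) and the other 5 had received 5X-MTHF (methylfolate). Both diets gave 5 times the recommended level of folate, so all 10 dams were on a high dose. The study also had dams on the recommended level, and RNA from those was not sequenced. The ARC was dissected from whole brain, so the RNA comes from mixed cells, and fewer cells of a type cannot be told apart from less RNA per cell. The study asked how the 2 folate forms compare. That comparison was not made here for the imprinted genes, since no column of values per dam could be matched to a labelled dam. What follows describes the position, level and promoter sequence of the genes over both diets together. Each level is the authors' average log2 CPM (CPM, read counts scaled to the size of the library, on a log2 scale) over all libraries, a single value per gene with no error and no value for either diet.

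Imprinted genes are expressed mainly or only from the chromosome inherited from one parent. The choice is set by DNA methylation laid down in the egg or sperm, often at a control region shared by neighbouring genes, and the genes therefore tend to lie in clusters. Many act in fetal growth, in the placenta, and in the brain, where hypothalamic roles in feeding and maternal care are known for several. Methyl groups for DNA methylation come from one-carbon metabolism, in which folate takes part. Methylation was not measured in the values used here. The expressed allele assigned to each gene is textbook knowledge, mostly from mouse, and these values do not separate the parental alleles.

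Neighbouring members up to 2 Mb apart were taken as a cluster. By this distance 19 of the 32 members with a row fell into 7 clusters of 2 or more, and the other 13 stood alone. All positions of rows are on Rnor_6.0, and all 33 rows are annotated as protein-coding. CPM rises with transcript length as well as with transcript number, so the order of the values is an order of read shares and not of transcript levels.

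The paternally expressed Peg3 had the highest read share of the members. Peg3, a zinc finger protein known for its part in maternal behaviour in mice, lies on chromosome 1 from 70222964 to 70237443 and had an average log2 CPM of 11.38. That corresponds to 2663 CPM and to 26.9% of the summed CPM of the 33 rows. Usp29, a paternally expressed ubiquitin peptidase gene, lies 219 kb before it (69988673 to 70003582) with an average log2 CPM of 8.43. Zim1, a maternally expressed zinc finger gene, follows 16.2 kb after Peg3 (70253650 to 70266809) with 5.06. The highest and lowest of these read shares were 79.9-fold apart, the widest range in any of the 7 clusters, and no other row of the table lay between the ends of the cluster.

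Ndn and Magel2, paternally expressed MAGE family genes of the region that corresponds to the human Prader-Willi locus, are 32.4 kb apart on chromosome 1. Ndn (122981755 to 122983351) had an average log2 CPM of 8.48, and Magel2 (123015746 to 123019522) had 5.59, a 7.44-fold difference in read share. Both are known as genes without introns, so their annotated spans of 1597 and 3777 bases can stand for transcript length. Per kb of span, Ndn had 224 CPM and Magel2 12.7 CPM, a ratio of 17.6. The difference between the pair was thus wider per length than in read share. Nap1l5, a paternally expressed gene that also lacks introns, had 518 CPM per kb over 1868 bases, 2.31 times the value of Ndn. The whole span of Nap1l5 lies within that of Herc3, so its value and this ratio are uncertain. No spread between dams is at hand for these ratios.

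Ube3a, a ubiquitin ligase expressed from the maternal allele in neurons, belongs to the same imprinted domain but lies 6.30 Mb before Ndn in this build (116587815 to 116679973) and so stood alone. Its average log2 CPM was 7.12. Snrpn, a paternally expressed splicing protein gene of the domain, is annotated 72.1 Mb from Ndn on Rnor_6.0, from 195074330 to 195096460 on chromosome 1. In the RefSeq assembly GRCr8 it lies between Ube3a and Ndn, so the distance depends on the assembly. The row of Snrpn had the lowest read share of all member rows, with an average log2 CPM of 1.34. Its level is uncertain. The row of Snurf, named here after its value was seen and whose transcript is known to include the coding sequence of Snrpn, begins at the same base and ends at 195096694, and it had an average log2 CPM of 6.88. The Snurf row was thus 5.54 higher on the log2 scale over a span that contains the whole of the Snrpn span. The effect of reads that lie in exons of both rows on these values was not tested.

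Igf2 and Cdkn1c lie 814 kb apart on chromosome 1 and act on growth in opposite ways, Igf2 as a paternally expressed growth factor and Cdkn1c as a maternally expressed inhibitor of the cell cycle. Igf2 (215828102 to 215846911) had an average log2 CPM of 7.77, and Cdkn1c (216661080 to 216663721) had 3.55, the third lowest of the member rows. Their read shares were 18.7-fold apart. Th, Cd81 and Tssc4 lie between them and had 5.20, 9.08 and 4.30. In adult brain, Igf2 is known to be expressed strongly in choroid plexus and meninges, and from both alleles there. The choroid plexus markers with a row were low, Ttr at 3.06, Aqp1 at 1.69 and Folr1 at 0.83, with a summed level of 13.3 CPM over 3 of the 4 listed, against 219 CPM for Igf2. The markers of meninges and fibroblasts summed to 79.8 CPM over 3 of 4, with Col1a1 highest at 5.54. Kl and Col1a2 were not analysed here, and the part of these tissues in the level of Igf2 was not tested.

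Blcap and Nnat, on chromosome 3, are 1.77 kb apart. Nnat, a paternally expressed small membrane protein gene of neurons and endocrine cells, lies from 154043873 to 154046330 and had an average log2 CPM of 9.51. Blcap, whose expressed allele depends on transcript and tissue, lies from 154040166 to 154042099 and had 7.02, a read share 5.61-fold lower. Gnas, also on chromosome 3, encodes the stimulatory G protein alpha subunit and other products from several promoters with different parental expression. Its 2 rows overlap by 42812 bases. The row from 172385672 to 172434613 had an average log2 CPM of 10.09, the second highest of the member rows, and the row from 172374957 to 172428483 had 6.69. HTSeq, the counter named in the labels, by default counts a read that lies in exons of both rows for neither. Both values are therefore uncertain, and the 10.5-fold gap between them is not a ratio of Gnas products.

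The cluster with the most members spans 3765 kb of chromosome 4, from Calcr to Dlx5. Of its 6 members only Dlx5 lay below the median of the table. Calcr, the calcitonin receptor, which binds amylin together with accessory proteins, had an average log2 CPM of 6.67 (28627442 to 28702559). Sgce, the paternally expressed epsilon-sarcoglycan, had 5.21 (29726146 to 29778039). Ppp1r9a, a neuronal actin-binding scaffold listed as maternally expressed, had the highest value of the cluster, 7.04 (29978739 to 30241911).

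Asb4, a SOCS box protein known from hypothalamic neurons, had 4.97 (30313102 to 30501329). Pon2, a paraoxonase, had 6.55 and lies from 30344709 to 30380119, within the span of Asb4, so these values are uncertain where their exons overlap. Dlx5, a homeobox gene of forebrain interneuron development, lies 1.89 Mb beyond Asb4 (32387741 to 32392007) and had 2.76, the second lowest of the member rows. The 9 other rows within the ends of this cluster ran from 2.52 to 7.19 with a median of 5.03. The values of these 6 members therefore overlapped with those of the genes between them.

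Mest and Copg2, further along chromosome 4, are 1.69 kb apart. Mest, a paternally expressed hydrolase-like gene linked to growth and maternal behaviour in mice, had an average log2 CPM of 4.93 (58053041 to 58063138), at the median of the table. Copg2, a coat protein subunit of vesicles, had 7.16 (58064833 to 58195143), a read share 4.68-fold higher. Begain and Dlk1, on chromosome 6, are 580 kb apart. Their read shares were 1.38-fold apart, the narrowest range in any of the 7 clusters. Dlk1, a paternally expressed Notch-like protein, had 6.28 (133552821 to 133583751), and Begain, a postsynaptic protein gene, had 6.74 (132936970 to 132972511). Meg3, Rtl1 and Dio3, which belong to the Dlk1 domain, were not analysed here.

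**Figure D1:**
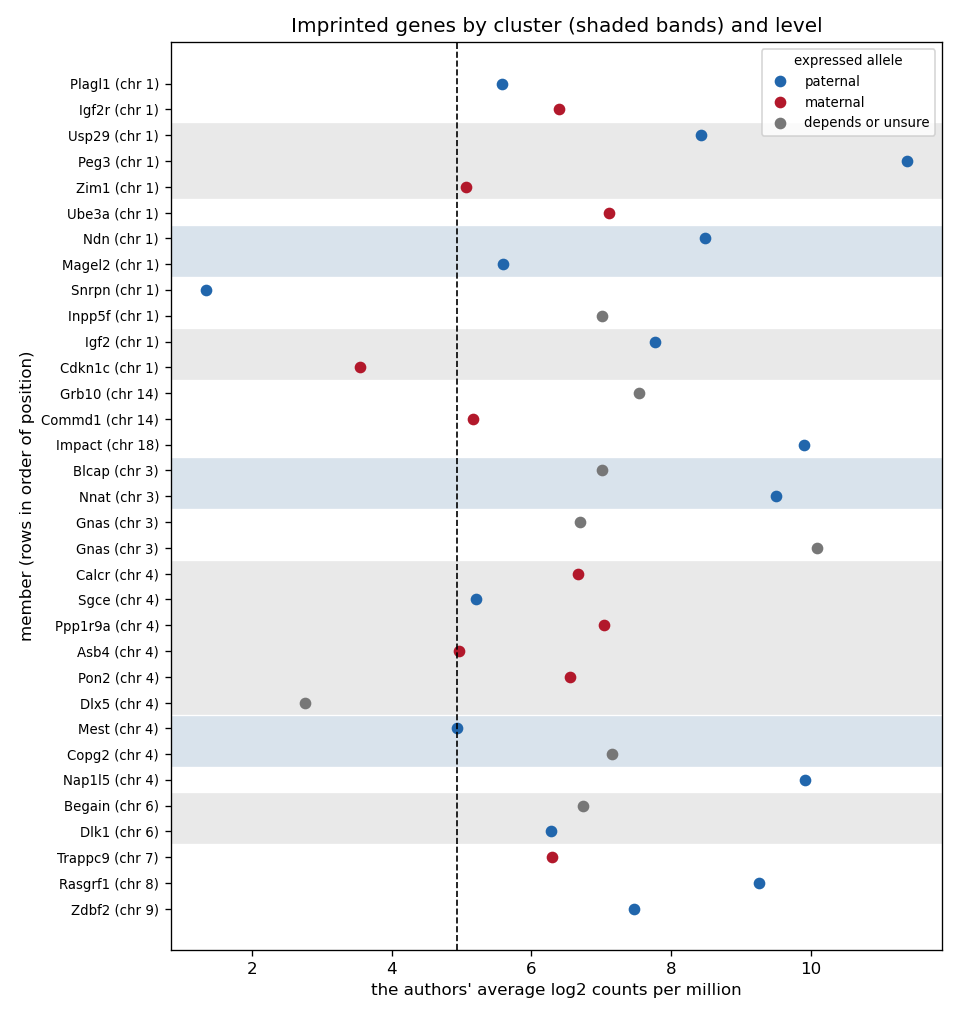
Level of each member row as the authors' average log2 CPM (x axis), with rows in order of position (y axis), clusters of 2 or more members shaded and points coloured by expressed allele. The dashed line is the median of all rows, 4.94, and Peg3 at 11.38 and Snrpn at 1.34 are the ends of the range. The level of Snrpn is uncertain, since its span lies within that of Snurf.

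**Figure D2:**
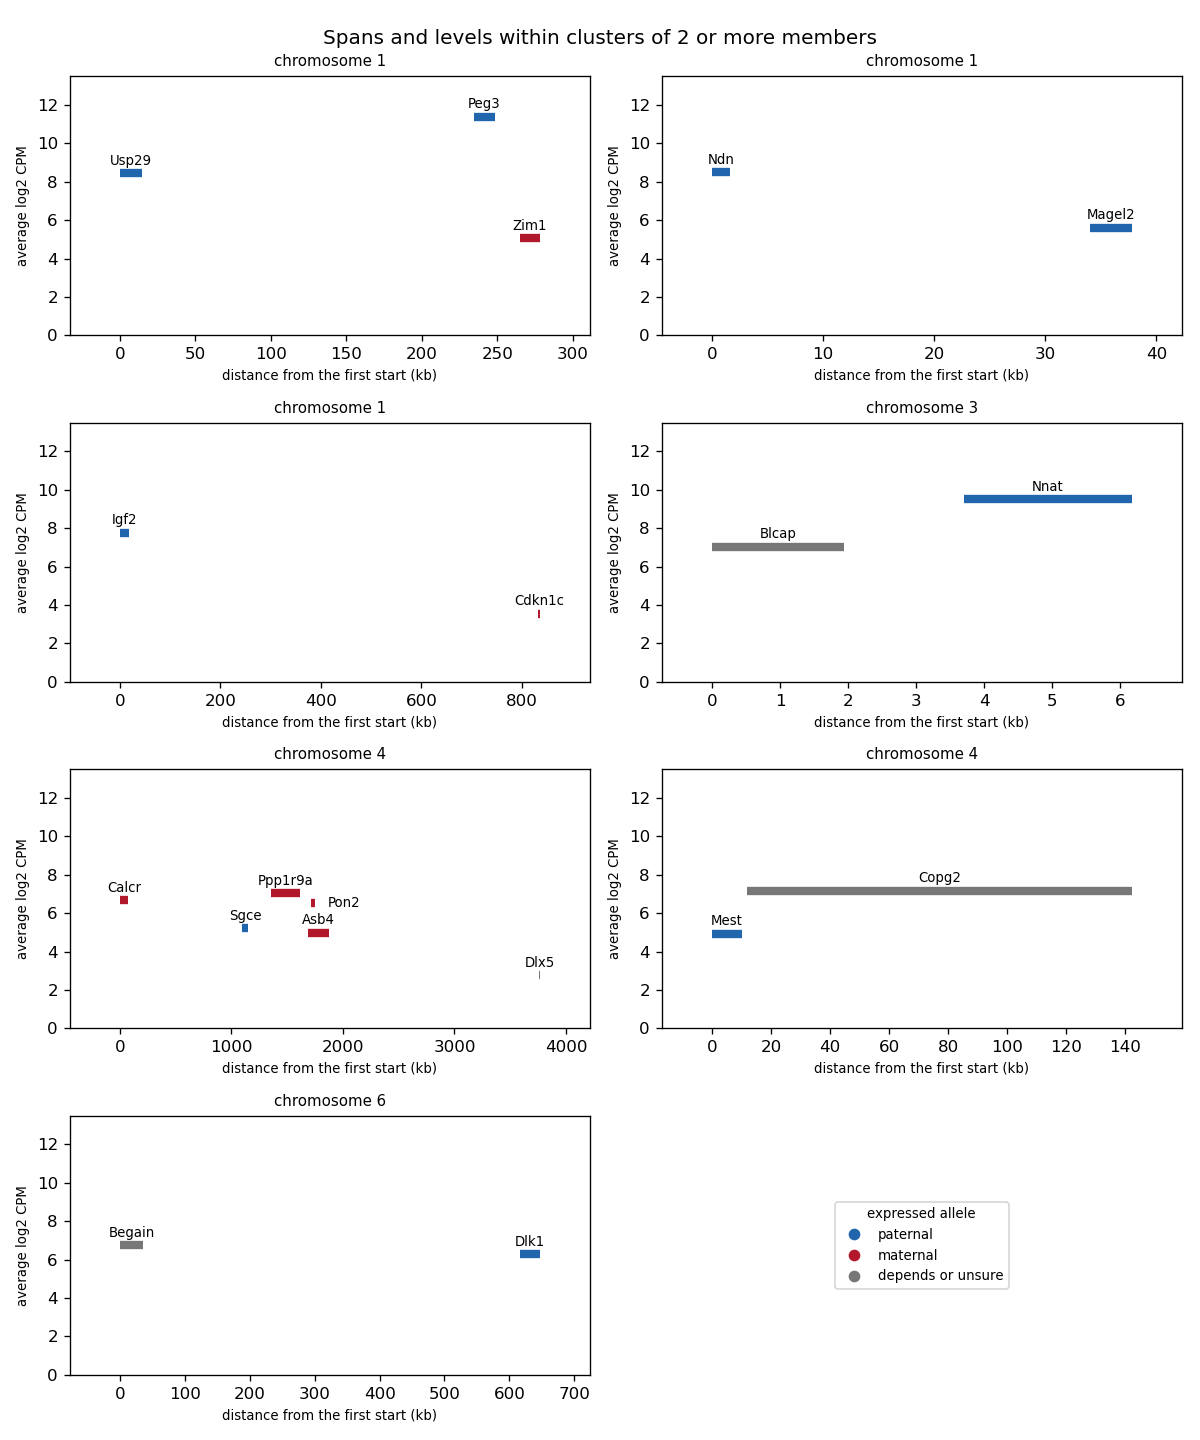
Annotated spans of the members in each of the 7 clusters as distance in kb from the first start (x axis, to scale within a panel) against average log2 CPM (y axis). The cluster of Peg3, Usp29 and Zim1 covers 278 kb and that of Blcap and Nnat 6.16 kb.

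Several members that stood alone had high read shares. Nap1l5, a nucleosome assembly protein-like gene on chromosome 4 (89149317 to 89151184), had an average log2 CPM of 9.92, the third highest of the member rows. It lies within the span of Herc3, which had 7.49, so reads from Herc3 introns or exons at this place could not be separated by position. Impact on chromosome 18 (4325875 to 4346769), a regulator of translation known from hypothalamic neurons, had 9.91. Rasgrf1 on chromosome 8 (97277456 to 97405102), a neuronal exchange factor for Ras, had 9.25.

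Growth-related genes among the single members were Grb10, Igf2r and Plagl1. Grb10, an adaptor that dampens insulin signalling and is expressed from the paternal allele in neurons but from the maternal one elsewhere, lies on chromosome 14 (92021851 to 92117923) and had 7.55. Igf2r, the receptor that clears Igf2, maternally expressed in many tissues but known from both alleles in mouse neurons, lies on chromosome 1 (48176106 to 48264477) and had 6.39. Plagl1, a paternally expressed zinc finger gene, lies on chromosome 1 (7252349 to 7259035) and had 5.58. The other single members ran from 5.16 to 7.47. They were Commd1 on chromosome 14 (107664255 to 107760191), Trappc9 on chromosome 7 (113681793 to 114305896), Inpp5f on chromosome 1 (200037749 to 200116524) and Zdbf2 on chromosome 9 (70059683 to 70089778). Zrsr1, itself known as an imprinted gene and named here after its value was seen, lies within the span of Commd1 and had 6.24, above the 5.16 of Commd1. Kcnk9 lies within the span of Trappc9 and had 5.42, below the 6.30 of Trappc9.

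Over the 33 rows the median of the average log2 CPM was 6.74, against 4.94 over all rows of the table, a difference of 1.80. Of the 33 rows, 29 lay above the median of the table and 11 were in its top 10%, which held 9.99% of all rows. The 11 names without a row are not in these counts, and list members passed a filter to be counted, so the counts describe the rows and nothing more. The 33 rows summed to 9907 CPM. A list of 52 other genes that are known as imprinted in some species or as neighbours of imprinted genes had 32 rows with a median of 5.40, and 21 of the 32 lay above the median of the table. The list was not made by distance from the members. Htr2a on chromosome 15 and Clcn4 on chromosome X lie on chromosomes with no member row, and Dnmt1 is also in the list of imprint regulators below.

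The member rows with the highest read shares were mostly of genes listed as paternally expressed. The rows taken as paternally expressed were those of Plagl1, Usp29, Peg3, Ndn, Magel2, Snrpn, Igf2, Impact, Nnat, Sgce, Mest, Nap1l5, Dlk1, Rasgrf1 and Zdbf2. Those taken as maternally expressed were Igf2r, Zim1, Ube3a, Cdkn1c, Commd1, Calcr, Ppp1r9a, Asb4, Pon2 and Trappc9. Inpp5f, Grb10, Blcap, Gnas, Copg2, Begain and Dlx5 were put in neither group, since their allele depends on tissue or transcript or is unsure. Both groups follow the assigned allele, and whether each gene is imprinted in this tissue was not measured. Igf2r was kept as maternally expressed although it is known from both alleles in mouse neurons. The 15 paternally expressed rows ran from 1.34 to 11.38 with a median of 7.77, and 9 of them were in the top 10% of the table. The 10 maternally expressed rows ran from 3.55 to 7.12 with a median of 6.35, and 0 were in the top 10%. Rows were found for 15 of 20 names listed as paternally expressed and for 10 of 16 listed as maternally expressed. The maternal names without a row were H19, Klf14, Meg3, Phlda2, Pon3 and Slc22a18, so the medians, counts and shares leave them out. The lowest paternally expressed row is that of Snrpn, whose level is uncertain, and the next is Mest at 4.93, above the 3.55 of Cdkn1c. The medians differed by 1.43 on the log2 scale. With those 7 members put with one parental allele each, the difference was 0.86. For this, Grb10, Gnas, Blcap, Copg2 and Dlx5 went with the maternal group, and Inpp5f and Begain with the paternal. Grb10 was thus counted as maternal although it is known from the paternal allele in neurons. With Igf2 and Igf2r left out of both groups, a choice made after seeing the data, the difference was 1.65. The paternally expressed rows held 73.4% of the summed CPM of the members, the maternally expressed rows 7.47%, and the rest lay in the 8 rows of those 7 members. Lengths were not accounted for, members of a cluster are not independent, and no test was made.

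**Figure D3:**
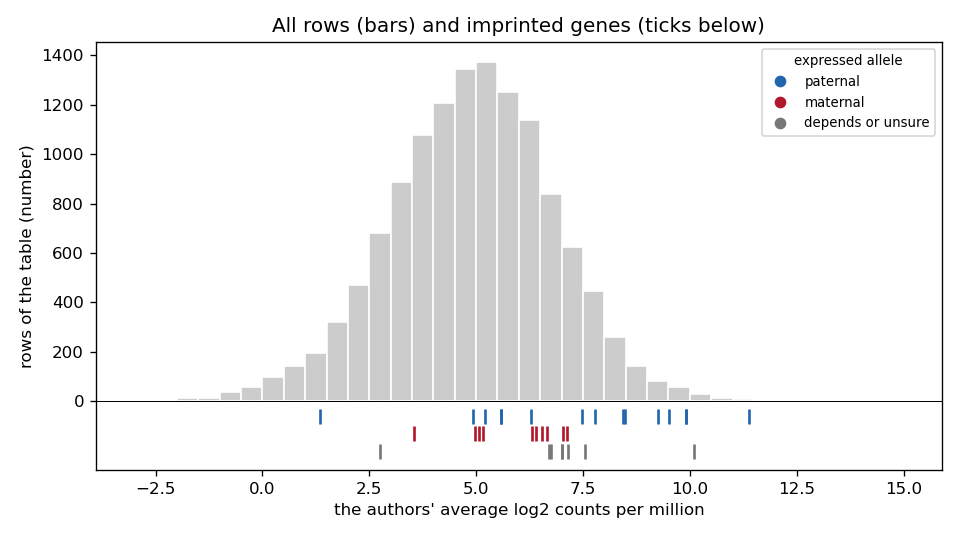
Number of rows of the table (y axis) by the authors' average log2 CPM (x axis, bars), with ticks under the bars for the member rows by expressed allele. The maternally expressed rows end at 7.12, and 9 of the 15 paternally expressed rows lie in the top 10% of the table.

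Of 20 listed genes that set or keep imprints, 12 had a row, with a median average log2 CPM of 5.66. The maintenance DNA methyltransferase Dnmt1 had 5.47 and the de novo enzyme Dnmt3a 5.28. Zfp57 and Zfp445, zinc finger proteins that bind methylated imprint control regions, had 4.48 and 5.79, and their partner Trim28 had 7.08. Ctcf, which insulates the unmethylated allele at some clusters, had 6.38.

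The tissue label was checked against markers by the same read shares. Of 8 markers of ARC neurons 7 had a row, with Cartpt at 6.02, Slc6a3 at 5.48, Pomc at 4.67, Tac3 at 4.34, Agrp at 1.42, Ghrh at 1.02 and Kiss1 at 0.08. Npy was not analysed here. Among markers of striatum, Ppp1r1b had 7.07, Drd1 5.01, Drd2 4.70 and Adora2a 4.26. Among those of cortex and hippocampus, Slc17a7 had 7.17, Tbr1 3.34 and Neurod6 2.40. The medians were 4.86 over 4 of 4 striatal markers and 3.34 over 3 cortical and hippocampal ones, against 4.34 over the ARC markers. The median was 8.80 for 5 neuronal markers, 9.68 for 4 of astrocytes, 10.49 for 4 of oligodendrocytes, 4.32 for 4 of microglia, and 5.77 for 3 of 4 of endothelium. Of 4 tanycyte markers 3 had a row. Rax, the most specific of those listed, was at 0.08, and Crym (5.53) and Vim (7.32) are also expressed by other cells. The part of other regions and cell types in the levels of the imprinted genes was not tested.

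Promoter sequences were taken from RefSeq (GRCr8) as windows of 300 bases, 250 before and 50 after each annotated start. They matched 36 of the 43 names with 40 windows, including 3 for Gnas and 2 each for Igf2 and Begain. No window was used for Cdkn1c, Dlx5, H19, Nnat, Peg12, Rtl1 and Trappc9. CpG, the dinucleotide that carries most DNA methylation in mammals, occurred a median of 20 times in the member windows, against 7 over all 33465 windows and 21 over the 10623 windows of genes with a row in the table. The members were thus richer in CpG than the genome's windows but close to those of other genes in the table. The highest count was 45, at Dlk1, and the lowest were 3 at Usp29, 5 at Impact and 7 at one of the Igf2 windows. For correlations of CpG with level, a gene with several windows or rows was given its highest CpG count and its highest level. Across 28 members with a row and a window, Spearman's rho between CpG count and average log2 CPM was 0.05 (Pearson's r 0.07). Across 9445 genes of the table it was 0.22 (Pearson's r 0.21). These are correlations across genes, which are not independent replicates and share the same libraries.

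**Figure D4:**
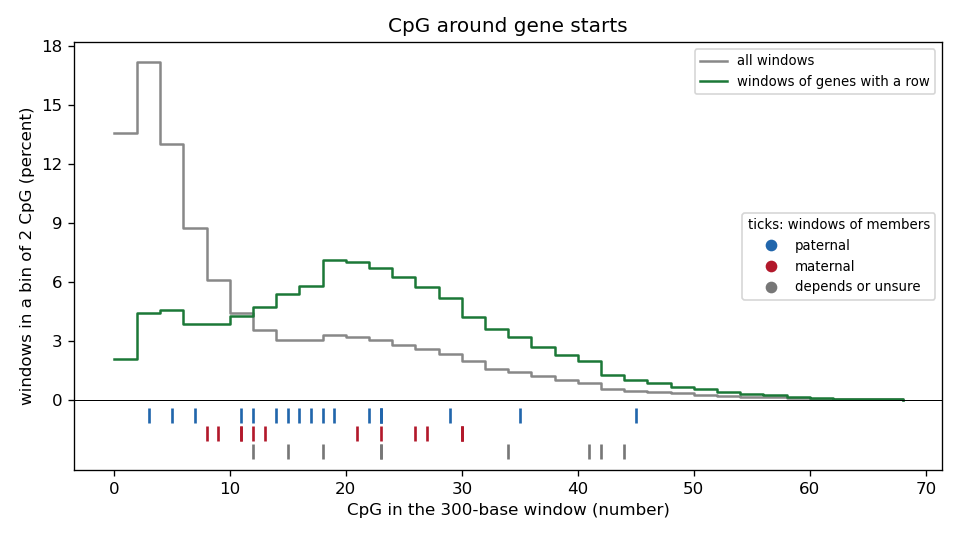
Share of windows in percent (y axis) by number of CpG in the 300-base window (x axis), for all windows and for windows of genes with a row, with ticks for the 40 member windows by expressed allele. The ticks run from 3 to 45 CpG, and the median is 20 for members and 21 for windows of genes with a row.

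Short motifs were then searched on both strands of each window. They were chosen after the data had been seen. The hexamer TGCCGC, known as the core of the methylated site that Zfp57 binds, was in 14 of the 40 member windows (35.0%), in 11.7% of all windows and in 21.2% of windows of genes with a row. The hexamer itself contains a CpG. Among windows with at least 10 CpG it was in 14 of 35 member windows (40.0%), in 23.0% of all such windows and in 25.1% of those of genes with a row. The Sgce and Peg10 windows share a single copy, which is counted in both. CCATNTT (YY1) was in 15.0% of member windows, 18.3% of all windows and 16.5% of windows of genes with a row. TATAAA was in 7 member windows (17.5%), 14.2% of all windows and 6.72% of windows of genes with a row. TGACGTCA (CRE) was in 3 member windows (7.50%), 1.83% of all windows and 3.01% of windows of genes with a row. The 10-base NRF1 motif was in 0 of 40 member windows, 4.26% of all windows and 9.43% of windows of genes with a row. A match is a run of letters and not a bound site, and methylation at these windows was not measured here.

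The 4 member windows with 2 copies of the hexamer belong to Nap1l5, Zim1, Calcr and Snrpn. Read shares of these genes ran from the third highest to the lowest of the member rows. The values at the ends, those of Nap1l5 and Snrpn, are uncertain as stated above. These windows are shown because they hold the most copies. Each is printed from 20 bases before the first copy, or from the edge of the window, to 20 bases after the last or the edge. Each reads 5′ to 3′ on the strand of the gene, with the hexamer or its reverse complement GCGGCA in capitals. They lie at chr4:89354688-89354784 (minus strand) for Nap1l5, chr1:76164988-76165233 (plus strand) for Zim1, chr4:32691142-32691325 (minus strand) for Calcr and chr1:120338870-120339165 (minus strand) for Snrpn, all on GRCr8.
Nap1l5: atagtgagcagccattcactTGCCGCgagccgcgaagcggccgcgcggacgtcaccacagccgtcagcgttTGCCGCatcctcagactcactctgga
Zim1: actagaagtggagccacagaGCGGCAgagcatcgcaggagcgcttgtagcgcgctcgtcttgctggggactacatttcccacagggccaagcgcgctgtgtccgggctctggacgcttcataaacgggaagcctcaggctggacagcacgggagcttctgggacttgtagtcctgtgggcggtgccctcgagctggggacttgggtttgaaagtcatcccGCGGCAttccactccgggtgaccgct
Calcr: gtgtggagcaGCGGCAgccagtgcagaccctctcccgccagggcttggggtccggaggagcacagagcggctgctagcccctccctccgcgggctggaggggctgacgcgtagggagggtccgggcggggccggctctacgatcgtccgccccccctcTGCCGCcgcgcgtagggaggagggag
Snrpn: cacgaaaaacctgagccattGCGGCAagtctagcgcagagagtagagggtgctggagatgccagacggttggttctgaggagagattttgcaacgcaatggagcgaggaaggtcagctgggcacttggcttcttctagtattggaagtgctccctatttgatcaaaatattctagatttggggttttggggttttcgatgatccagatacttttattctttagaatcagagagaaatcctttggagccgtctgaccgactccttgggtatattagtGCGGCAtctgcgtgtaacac
The copies of Nap1l5 have 45 bases between them and both precede the start, whereas those of Snrpn have 250 bases between them and lie on both sides of it.

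Sgce and Peg10, both paternally expressed, are transcribed away from each other from neighbouring starts, and their windows share 263 bases at chr4:33808776-33809038 of GRCr8. The shared stretch is shown because a pair of imprinted genes is read from it in opposite directions. It holds 20 CpG and a single hexamer, in capitals, and is printed on the plus strand, the direction of Peg10.
Sgce and Peg10: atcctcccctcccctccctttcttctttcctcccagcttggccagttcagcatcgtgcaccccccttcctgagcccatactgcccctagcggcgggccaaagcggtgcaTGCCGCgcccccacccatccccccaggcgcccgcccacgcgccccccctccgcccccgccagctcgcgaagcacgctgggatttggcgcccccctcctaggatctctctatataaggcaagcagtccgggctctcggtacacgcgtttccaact
Of this pair only Sgce has a level here, the 5.21 given above.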

How the data were processed

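RNA from the ARC of 10 dams was sequenced by the authors. Per the submitters' processing notes, Trim Galore 0.5.0, STAR 2.6.0c, HTSeq 0.6.1p2 and R 3.6.1 were used with Rnor_6.0. The average log2 CPM over all libraries was deposited by the authors and was the only measurement used. How it was averaged is not given in the sources used here. The study's methods state strand-specific libraries, a minimum number of reads per gene and an approximate depth common to all samples. The strand setting of the counting, and whether that minimum is the filter of this table, are not given. The depth of each single library was not obtained, since the values used are averages.

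The table also holds 10 columns of values per sample whose names match no sample label. They were used in no step. Another 4 columns hold the authors' comparison of the diets (log2 fold changes with F statistics, p-values and false discovery rates) and were not used. The planned test between the diets was therefore not run, and no comparison of samples was made.

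Members were matched by gene symbol. CPM was taken as 2 to the power of the average log2 CPM. Overlaps, distances, CpG counts and motifs came from Python 3.11.15 with numpy 2.4.6, pandas 2.3.3 and scipy 1.17.1, and the steps for clusters, CpG and motifs were tested on simulated data. Figures used matplotlib 3.10.9. Windows with letters other than A, C, G and T were left out (33465 of 33469 kept). The 22 repeats of a symbol were kept as separate rows. Every member with a row is named with its position, and values are given for members of clusters and for the 3 highest and 3 lowest. The members and lists were chosen with earlier results of these data known, and the motifs, the windows shown, the members compared per kb and the other single members given values were chosen after the data had been seen.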

Additional observations from a re-analysis of the deposited data

How the results depend on the processing

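No paired analysis was possible because the column used is an average over all libraries and carries no replicate numbers. The comparison of the diets was not run, since no column of values per dam was matched to a labelled dam, nor were its alternatives (pseudocount, low-value filter, scaling, replicate number, each dam left out, and another tool).

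The number of clusters was 5 with members joined up to 500 kb, 7 up to 1 Mb and 8 up to 5 Mb, against 7 at 2 Mb. At 1 Mb Calcr and Dlx5 left the cluster on chromosome 4, and at 5 Mb Snrpn and Inpp5f formed another.

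The member median exceeded that of the table by 1.80 on the log2 scale. It was 1.73 against protein-coding rows, 1.72 when rows under 1 on that scale were left out, 1.92 with means and 1.94 with each symbol once. Without members whose span overlaps another row, an alternative chosen after seeing the data, it was 2.08. The paternal median exceeded the maternal by 1.43, by 0.86 with unsure members put with the allele named first, by 1.24 without overlapping members and by 1.65 without Igf2 and Igf2r, both also chosen after seeing the data. The direction held in these alternatives, but without a spread between dams no size of shift can be called small. The cause of the shifts was not tested.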
